A study of Mus musculus with 18 samples.

Results

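RAD21 binding was compared between a mouse pro-B cell line with both copies of the Ig2b region deleted and the same kind of line without that deletion, using the 3 deleted and the 3 wild type lists of broad RAD21 ChIP-seq peaks. These 6 lists are all the Ig2b libraries among the 14 peak lists and 18 samples of the series, and they were chosen by their labels alone. All cells were v-Abl transformed pro-B cells that carried JH-del and Emu-Bcl2, expressed dCas9 and were RAG2 deficient. The deleted cells carried Ig2b-del/del in addition. All were treated with 3 uM STI-571, an inhibitor of the Abl kinase, for 4 days, crosslinked with 1% formaldehyde, sonicated and precipitated with 5 ug of a RAD21 antibody. The other lists, 4 of RAD21 and 4 of the cohesin loader NIPBL, came from cells with the wild type genotype label (dCas9 control) or from cells that also expressed an Sg1-sgRNA (dCas9 block). They serve here to show where else a region carried a peak and how many bp their peaks covered there. Peak names mark a control for these lists and none for the Ig2b lists. Their covered lengths are therefore set beside those of the Ig2b lists as a description. The labels name no clone and no deletion ends, and nothing says that replicates were separate cultures, so a p-value measures only the spread between these samples.

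RAD21 is the kleisin subunit of cohesin, the ring complex that extrudes chromatin loops and is held up at CTCF sites of convergent orientation and at strongly transcribed or enhancer-rich chromatin. In pro-B cells the immunoglobulin heavy chain locus (Igh) is drawn through this process past the RAG recombination centre at Eμ, JH and the nearest D segment, which lets the centre scan D and V segments. The 3′CBEs and IGCR1 are clusters of CTCF sites that bound the scanned interval. Each constant region that supports class switching has its own I promoter, from which a germline transcript starts, and Ig2b is read here as the I promoter region of γ2b. The labels do not spell the name out.

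Shown first is a stretch from 1 of the 2 Igh regions with a peak in every wild type list and in no deleted list. It is the 300 bp of mm9 plus strand sequence at chr12:114552801-114553100, and its capitals mark the 248 bp that were covered by a RAD21 peak in all 3 wild type lists and in no deleted list. The CTCF core described next has no match in these letters.
Iγ2b region: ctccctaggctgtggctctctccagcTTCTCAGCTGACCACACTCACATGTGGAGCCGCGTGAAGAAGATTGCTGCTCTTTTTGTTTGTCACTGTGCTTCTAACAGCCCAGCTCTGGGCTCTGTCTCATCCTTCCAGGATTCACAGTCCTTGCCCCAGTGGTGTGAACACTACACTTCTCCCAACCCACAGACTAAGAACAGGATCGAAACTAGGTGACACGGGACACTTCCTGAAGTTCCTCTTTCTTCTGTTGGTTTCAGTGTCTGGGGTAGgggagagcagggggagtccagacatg

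The next sequences come from RAD21 peaks of the same locus that carry a match to the CTCF core, a 12-base form of the CTCF binding motif with 7 fixed bases, 2 positions of 2 choices and 3 free positions, searched on both strands. The capitals mark the match, and each 40-base stretch is printed on the strand of the match. They are shown because the first pair and the last pair lie in opposite orientation on mm9 chromosome 12. The printed matches are on the plus strand at the 3′CBEs and on the minus strand at IGCR1 and at the V genes. Other cores of the 3′CBE segment, in no peak of the 6 lists, include some on the minus strand. The IGCR1 region at chr12:114725696-114726559 holds no match, so these matches do not give the orientation of a whole element.
3′CBEs, chr12:114458250-114458289, plus: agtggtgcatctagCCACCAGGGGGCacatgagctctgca
3′CBEs, chr12:114459605-114459644, plus: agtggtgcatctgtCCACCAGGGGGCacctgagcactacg
Cα, chr12:114495661-114495700, minus: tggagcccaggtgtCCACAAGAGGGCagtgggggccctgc
IGCR1, chr12:114723467-114723506, minus: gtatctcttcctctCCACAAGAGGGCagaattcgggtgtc
Ighv5-2, chr12:114816631-114816670, minus: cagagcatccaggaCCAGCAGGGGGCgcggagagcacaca
Ighv2-2, chr12:114826392-114826431, minus: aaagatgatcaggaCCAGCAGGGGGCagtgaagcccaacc

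The lists differed in length before any site was considered. Wild type lists held 45697 to 56348 peaks over 11.6 to 15.2 Mb (mean 13.7 ± 1.87, SD, n = 3), and deleted lists held 44729 to 75597 peaks over 11.9 to 25.1 Mb (18.4 ± 6.61, SD, n = 3). Deleted replicate 2 was the longest list and deleted replicate 3 the shortest. Peaks with a −log10 q of at least 3 numbered 18773 to 23243 in wild type lists and 25872 to 26878 in deleted lists, so the groups did not overlap among the stronger peaks. Read depth is not in the peak lists and is unknown.

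At Iγ2b the deleted libraries had no RAD21 peak. The region chr12:114552680-114553251, in no annotated gene, lies upstream of the γ2b constant gene (listed as Ighg), with its ends 6536 and 7107 bp from the gene's start. It had a fold enrichment over the caller's background of 4.51, 4.82 and 4.07 in wild type 1 to 3. It had none in deleted 1 to 3. All 4 dCas9 RAD21 lists and all 4 NIPBL lists also had a peak there, with RAD21 folds of 3.73 and 6.62 in the dCas9 control lists and 3.35 and 3.70 in the dCas9 block lists. Wild type peaks covered 425, 402 and 273 bp of it. The deleted lists were empty over 18.7 kb, from 114539446 to 114558157, where wild type peaks covered 709, 773 and 273 bp in 6 regions. Only the Iγ2b region among those 6 was in all 3 wild type lists. Of the others, 1 was in 2 wild type lists and 4 were in a single one. Because the deletion removes DNA whose ends the labels do not give, missing DNA and lost binding cannot be told apart in this stretch.

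The peak on the far side of the empty stretch was kept. At chr12:114559030-114559791, in the segment that holds Cγ1, all 6 lists had a peak, with folds of 3.70, 4.53 and 3.89 in wild type and 5.28, 4.88 and 5.30 in deleted libraries. Wild type peaks covered 336, 277 and 413 bp of this region and deleted peaks 655, 676 and 495 bp. Every deleted library thus stood above every wild type library in both fold and width at the nearest region toward Cγ1 that had a peak in all 6 lists. That order was common: of the 29147 regions of the genome that had a peak in all 6 lists, 36.4% had the fold and 13.7% the covered length of every deleted library above every wild type library, and 0.82% and 1.18% had them below. In Igh 76 of 194 such regions (39.2%) had the fold above and 27 (13.9%) the covered length above, close to the genome's shares, and none had either below.

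Igh was divided into 17 segments, and the share of each segment covered by peaks was compared over the 6 libraries. The groups did not overlap in 6 segments, with 5 covered more and 1 covered less in every deleted library. Across 10 kb windows of the genome with a peak, 8.56% had every deleted library above every wild type library and 0.831% had every deleted library below, though windows and segments differ in length. For each such segment the exact two-sided permutation test gave p = 0.1, the smallest that 3 against 3 libraries allow, so no segment could pass a threshold of 0.05. The single segment covered less was the Cγ2b segment, 17 kb long, with 4.17%, 4.55% and 1.61% in wild type (3.44 ± 1.60, SD, n = 3) and 0 in each deleted library. The groups overlapped there with peaks of −log10 q of at least 3 alone (means of 1.62% and 0) and with the segment ends moved out by 3 kb, which takes in the Cγ1 peak (4.10% and 2.90%).

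The segment of the μ constant gene and its switch region, Cμ-Sμ, had the widest gap in the other direction. Peaks covered 8.88%, 13.6% and 3.28% of its 9 kb in wild type 1 to 3 and 25.1%, 62.1% and 20.9% in deleted 1 to 3 (8.60 ± 5.19 against 36.1 ± 22.7, SD, n = 3 each). The 3 deleted libraries lay above the 3 wild type libraries, and deleted replicate 2 lay far above the other deleted ones. One region in this segment, chr12:114658096-114658559, was covered in all 3 deleted lists (355, 296 and 251 bp, folds of 3.92, 3.38 and 4.03) and in no wild type list, and 1 of the 4 dCas9 RAD21 lists also had it. These were weak, broad peaks, since with a −log10 q of at least 3 the covered share was 0 in all wild type libraries and 0.00370% on average in deleted libraries. Relative to the genome coverage of the same library, which allows for the longer lists, Cμ-Sμ was still covered more in every deleted library (49.4 ± 14.6 against 15.9 ± 8.15 times, SD, n = 3 each, exact permutation p = 0.1). Cells without the Ig2b deletion varied widely here, since the dCas9 RAD21 lists covered 0 and 56.0% (control 1 and 2) and 0 and 6.59% (block 1 and 2). Control replicate 2 thus lay within the range of the deleted libraries.

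The recombination centre next to it did not separate the groups. The region over the Eμ enhancer and JH, chr12:114664000-114666361, carried a peak in all 6 lists with folds of 5.95, 5.42 and 6.54 in wild type and 6.93, 6.22 and 5.84 in deleted libraries. Its 4 kb segment was covered to 33.7%, 23.9% and 23.9% in wild type and 32.1%, 59.0% and 26.0% in deleted libraries (exact permutation p = 0.3). All groups carry the JH deletion and Emu-Bcl2, and the part of either in these Eμ-JH values was not tested. The D segment nearest JH, at chr12:114668364-114669078, also had a peak in all 6 lists, with covered lengths of 246, 421 and 197 bp in wild type and 451, 503 and 125 bp in deleted libraries. The whole DH segment overlapped between groups (exact permutation p = 0.4).

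The CTCF-bound boundaries were occupied in both groups. At IGCR1, 2 regions were in all 6 lists, and the one at chr12:114725696-114726559 had folds of 10.5, 11.2 and 9.85 in wild type and 9.86, 14.3 and 13.0 in deleted libraries. Coverage of the IGCR1 segment was 31.2%, 36.7% and 20.5% in wild type and 41.4%, 55.9% and 30.6% in deleted libraries, and the groups overlapped (exact permutation p = 0.3). At the 3′CBEs, 7 of 8 regions were in all 6 lists. The region at chr12:114458034-114459084 holds the first core printed above. Its highest folds were 13.5, 13.6 and 11.4 in wild type and 15.7, 13.2 and 18.1 in deleted libraries. The peak over that core had folds of 6.76, 7.45 and 6.46 in wild type and 8.84, 13.2 and 8.22 in deleted libraries. Folds at the second 3′CBE core ran from 5.70 to 6.50 in wild type and from 9.29 to 14.2 in deleted libraries. At both cores every deleted library stood above every wild type library. At the IGCR1 core the groups overlapped, with 6.99, 7.12 and 8.80 in wild type and 6.96, 6.47 and 7.40 in deleted libraries.

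Coverage of the 3′CBE segment was 9.99%, 10.2% and 8.90% in wild type and 13.1%, 15.7% and 11.7% in deleted libraries, without overlap (exact permutation p = 0.1). Except in deleted 3, all of this coverage lay in the 7 regions found in all 6 lists. The region at chr12:114462149-114463554, for example, was covered over 359, 299 and 279 bp in wild type and 1027, 1212 and 514 bp in deleted libraries. Relative to genome coverage the 3′CBE segment overlapped between groups, at 18.9 ± 1.28 and 20.5 ± 4.92 times (SD, n = 3 each).

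From the 3′RR to the interval between Cγ3 and Cδ, leaving Cγ2b aside, the coverage was low in all 6 libraries. The 3′ regulatory region (3′RR), the enhancer cluster downstream of Cα, was covered to 0, 1.46% and 1.13% in wild type and 1.58%, 2.39% and 1.73% in deleted libraries. Cα had 0, 0.786% and 0 in wild type and 1.57%, 1.12% and 1.10% in deleted libraries, all of it from 1 region with a CTCF core at chr12:114495530-114495771. That region had a fold of 5.45 in wild type 2, none in wild type 1 and 3, and 4.76, 3.50 and 3.94 in deleted libraries, and all 4 dCas9 RAD21 lists had it. The Cγ1 segment was covered to 1.12%, 0.923% and 1.55% in wild type and 2.18%, 2.68% and 1.65% in deleted libraries. These 3 segments did not overlap between groups as deposited, but all 3 did once set relative to genome coverage. With a −log10 q of at least 3 the Cγ1 segment separated the groups in both ways, at 2.03% ± 0.33 against 0.308% ± 0.53 and 5.12 ± 0.42 against 1.01 ± 1.75 times (SD, n = 3 each, deleted higher). Cε, Cγ3 and the interval from Cγ3 to Cδ held no RAD21 peak in any of the 6 lists.

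**Figure D1:**
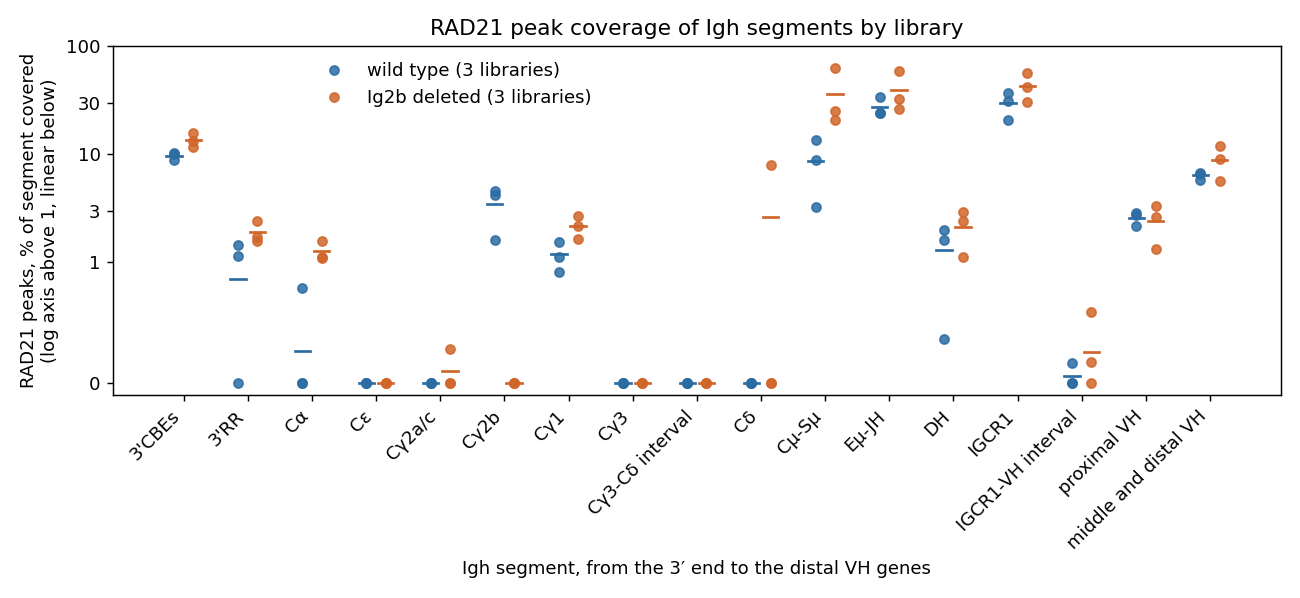
Share of each of 17 Igh segments covered by RAD21 peaks (% of the segment, log axis above 1 and linear below), ordered from the 3′ end of the locus to the distal V genes, with 1 point per library and a line at the mean of 3. The Cγ2b segment is at 0 in all 3 deleted libraries, Cμ-Sμ is at 20.9% or more in each of them, and the Eμ-JH and IGCR1 points overlap between groups.

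Many V genes nearest the D segments carried RAD21 in both groups. The proximal VH segment, 390 kb long, was covered to 2.73%, 2.87% and 2.17% in wild type and 2.63%, 3.30% and 1.33% in deleted libraries (exact permutation p = 0.8). It held 92 regions, of which 15 were in all 6 lists, and each of these 15 lay over a V gene. The V genes were Ighv5-2 (VH81X, a V gene that is used very often in pro-B cells), Ighv2-2, Ighv5-4, Ighv2-3, Ighv5-6, Ighv2-5, Ighv5-12, Ighv2-6, Ighv5-9-1, Ighv5-15, Ighv5-17, Ighv2-9, Ighv7-1, Ighv7-2 and Ighv4-1. Of the other 77 regions only 7 lay over a V gene. The 15 are shared by their choice, and other V genes had a peak in some lists of either group.

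CTCF cores were arranged in the same way at these V genes. The segment holds 26 cores, and 15 of them were inside a peak in all 6 lists, with folds from 3.45 to 11.0. All 15 lie on the minus strand, 53 to 67 bp from the nearest V gene. At Ighv5-2 the fold at the core was 8.10, 9.40 and 6.89 in wild type and 8.32, 10.0 and 9.55 in deleted libraries. At Ighv2-2 it was 8.34, 9.55 and 9.33 in wild type and 9.56, 10.1 and 11.0 in deleted libraries. In fold, every deleted library was above every wild type library at 8 of the 15 shared regions and below at none, beside 36.4% above and 0.82% below over all regions in all 6 lists. Outside the VH segments Igh holds 16 cores, of which 3 were in a peak in all 6 lists and 12 in none.

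Coverage of the proximal VH segment was split into the 15 shared V gene regions and the rest, and the groups overlapped in both. The 15 regions were covered over 5406, 5261 and 4217 bp in wild type and 7188, 7488 and 4701 bp in deleted libraries. The rest of the segment was covered over 5235, 5938 and 4238 bp in wild type and 3064, 5389 and 486 bp in deleted libraries. Deleted replicate 3, the shortest list, had almost nothing outside the V gene sites. Relative to genome coverage the whole segment was covered less in every deleted library, at 2.95 to 3.82 times against 4.95 to 5.05 times in wild type (3.41 ± 0.44 and 5.00 ± 0.05, SD, n = 3 each, exact permutation p = 0.1). With lists matched in length its covered share was also lower in every deleted library, with means of 1.79% in deleted and 2.27% in wild type. With peaks of −log10 q of at least 3 alone, relative to genome coverage, the groups overlapped. The deleted mean was then the higher one, at 4.09 ± 0.35 against 3.83 ± 0.36 times.

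The middle and distal V genes held most of the remaining sites of the locus. Their segment, 2050 kb long, was covered to 6.71%, 6.59% and 5.80% in wild type and 8.99%, 11.9% and 5.68% in deleted libraries (exact permutation p = 0.4). It held 776 regions, 166 of them in all 6 lists, and 34 of those 166 (20.5%) lay over a V gene, compared with 15 of 15 in the proximal segment. With a −log10 q of at least 3 coverage of the segment separated the groups, at 4.96% ± 1.30 in deleted and 3.06% ± 0.46 in wild type libraries, as it did without deleted 3. A peak in all 3 deleted and no wild type list was found at 11 of the 776 regions (1.42%), and the reverse at 1 (0.129%), beside 0.931% and 0.191% over the genome. The 11 had folds between 3.08 and 4.30, none held a CTCF core, and 3 were in no dCas9 RAD21 list.

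Of those 11 regions, 3 lay over a V gene, namely Ighv10-1, Ighv1-71 and Ighv1-81. The nearest V genes of the others were Ighv1-12, Ighv1-31, Ighv1-53, Ighv1-56, Ighv1-61 (for 2 regions) and Ighv8-11 (for 2 regions). At Ighv1-81 the region chr12:117158366-117158890 was covered over 359, 525 and 197 bp in deleted libraries. The 1 region lost here, chr12:116760124-116760415, lay 13936 bp from Ighv1-64, with folds of 3.27, 3.63 and 3.34 in wild type, and was in no dCas9 RAD21 list. For comparison, the median fold over all peaks of a list was 3.95 to 4.10 in wild type and 3.71 to 4.81 in deleted lists.

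Over the whole genome the peaks of the 6 lists merged into 105335 regions. A region is called gained here when all 3 deleted lists and no wild type list had a peak in it, and lost for the reverse. There were 981 gained regions (0.931%) and 201 lost regions (0.191%), while 29147 (27.7%) were in all 6 lists. A peak in a single library accounted for 30002 regions in the deleted group and 17245 in the wild type group. These counts carry no test.

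**Figure D2:**
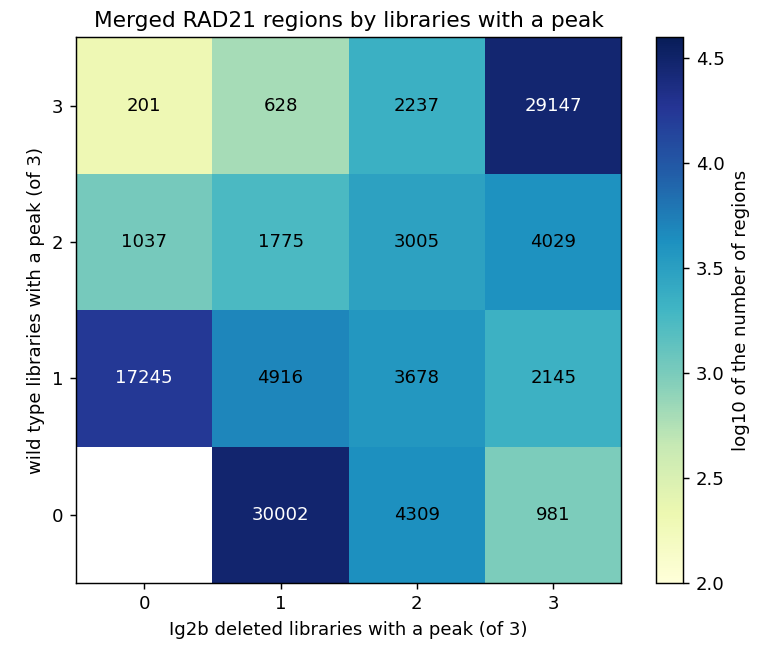
Number of merged RAD21 regions by how many of the 3 deleted lists (x axis) and of the 3 wild type lists (y axis) had a peak, with the colour on a log10 scale. The corners that define lost (201) and gained (981) regions are small beside the 29147 regions in all 6 lists and the 30002 and 17245 regions in a single deleted or wild type list.

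Most gained and lost regions lay away from chromosome 12. Within 100 kb of the Iγ2b region there were 24 regions, of which 0 were gained and 1 was lost, the Iγ2b region itself. Between 100 kb and 1 Mb, 1 of 261 was gained, the Cμ region, and 0 were lost. Between 1 and 3 Mb, 12 of 879 were gained (1.37%) and 1 was lost. Farther away on chromosome 12, 49 of 4055 were gained (1.21%) and 8 were lost, and on the other chromosomes 919 of 100116 were gained (0.918%) and 191 were lost (0.191%). In all of Igh, 12 of 913 regions were gained (1.31%) and 2 were lost (0.219%).

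Gained regions resembled the other regions in position. They had a median width of 289 bp, against 458 bp for regions in all 6 lists. Of the gained regions 35.0% were within 5 kb of the start of a protein-coding gene, against 30.0% of all regions, and 22.9% had a CTCF core in the 300 bp around their centre, against 18.3% of all regions and 37.3% of those in all 6 lists. Windows 5 kb away from all regions held a core in 2.25% of cases. Most gained regions also had RAD21 in cells with the wild type genotype label, since 93.6% had a peak in a dCas9 control list. By list this was 35.3% in control replicate 1 and 92.0% in control replicate 2, against 40.4% and 62.4% of all regions. Regions found in 3 of the 6 lists but in both groups came near the gained ones, with 37.1% and 83.0% by list and 88.7% in either control. Control replicate 2 had the greatest covered length of the 10 RAD21 lists, 34.4 Mb. Only 33 of 981 (3.36%) were in no dCas9 RAD21 list.

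Lost regions were of another kind. A region is called mostly repeated here when at least 50% of its stretches of 32 bases occur more than once on the chromosome, and this held for 53.2% of lost regions, 8.05% of gained regions and 16.2% of all regions. Lost regions were near a gene start in 12.4% of cases and had a CTCF core in 10.9%. Without mostly repeated regions there remained 902 gained and 94 lost regions, with a core in 23.1% and 23.4%. A dCas9 control peak was present at 93.8% of these gained and 89.4% of these lost regions.

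**Figure D3:**
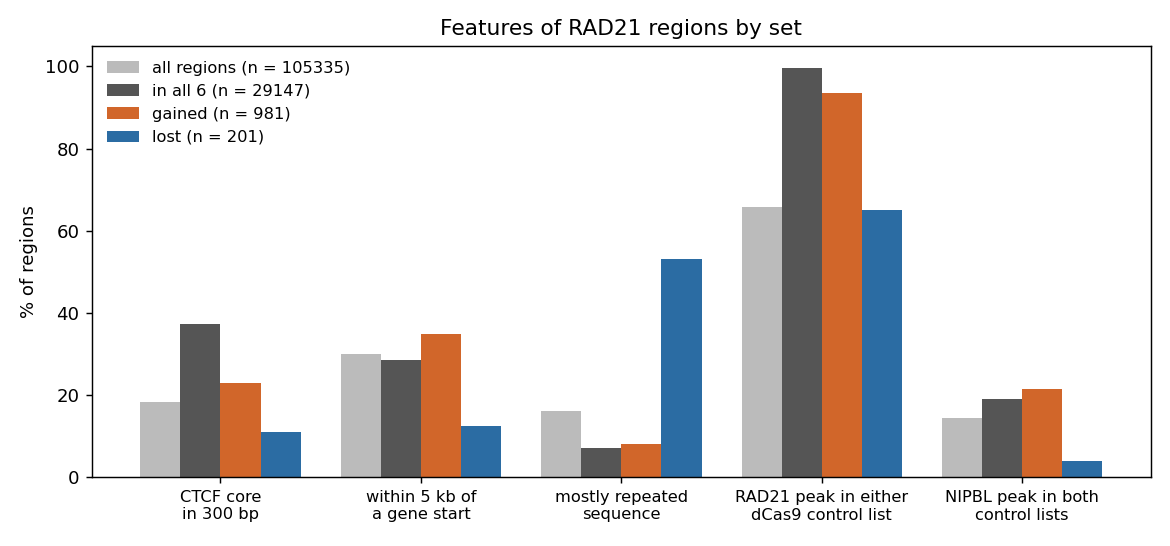
Share of regions (%) with a CTCF core, a protein-coding gene start within 5 kb, mostly repeated sequence, a RAD21 peak in either dCas9 control list and a NIPBL peak in both control lists, for all 105335 regions, the 29147 in all 6 lists, the 981 gained and the 201 lost. Lost regions have the highest share of repeated sequence (53.2%), and gained regions have a dCas9 control peak in 93.6% of cases.

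Chromosomes 4, 13 and X held 81 of the 201 lost regions (40.3%), against 15.6% of all regions. Of the 81, 67 were mostly repeated. These chromosomes thus held 67 of the 107 lost regions that were mostly repeated, beside 36.4% of all mostly repeated regions. On chromosome X 32 of 34 lost regions were mostly repeated, and on chromosome 4 it was 25 of 32. A stretch of chromosome 4 from 145359443 to 147185816 held 17 lost regions among 1065, in an array of zinc finger genes such as Zfp600 and many predicted genes. A stretch of chromosome X from 30363752 to 32155841 held 15 among 985, over predicted genes such as Gm2825, and one from 3006651 to 4913301 held 12 among 915. On chromosome 13 the Prl2c genes, a family related to prolactin, had 6 lost and 2 gained among 301 regions, and on chromosome 4 the Mup genes, which encode major urinary proteins, had 4 lost among 108. Over the genome 0.191% of all regions were lost, as were 107 of the 17105 mostly repeated regions. These stretches were chosen because they held lost regions, so their counts are a description.

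Repeated sequence also took a smaller share of the deleted lists as a whole. Mostly repeated regions held 15.8%, 14.7% and 17.1% of the covered length in wild type and 11.6%, 10.8% and 11.3% in deleted libraries (15.9 ± 1.21 against 11.2 ± 0.41, SD, n = 3 each, no overlap, exact permutation p = 0.1). Coverage of chromosome X was 0.997 ± 0.092 times that of the genome in wild type and 0.720 ± 0.057 times in deleted libraries, without overlap (exact permutation p = 0.1). Its part outside repeated regions was 0.307 ± 0.019 and 0.280 ± 0.031 times, with overlap (exact permutation p = 0.3). Whether the repeated share sets the count of lost regions was not tested beyond the count without such regions.

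The numbers of gained and lost regions moved with how peaks were counted. Requiring a −log10 q of at least 3 left 885 gained and 29 lost regions. Cutting every list to the 44729 peaks of highest −log10 q, the length of the shortest list, gave 600 gained and 428 lost, the closest the 2 counts came. Leaving out a library loosens the rule, and gained regions then numbered 1652, 2213 and 1243 without wild type 1, 2 and 3 and 1852, 1310 and 4183 without deleted 1, 2 and 3. Lost regions numbered 496, 512 and 671 without wild type 1, 2 and 3 and 342, 655 and 245 without deleted 1, 2 and 3. Gained regions outnumbered lost ones in every way of counting that was run with all 6 lists.

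**Figure D4:**
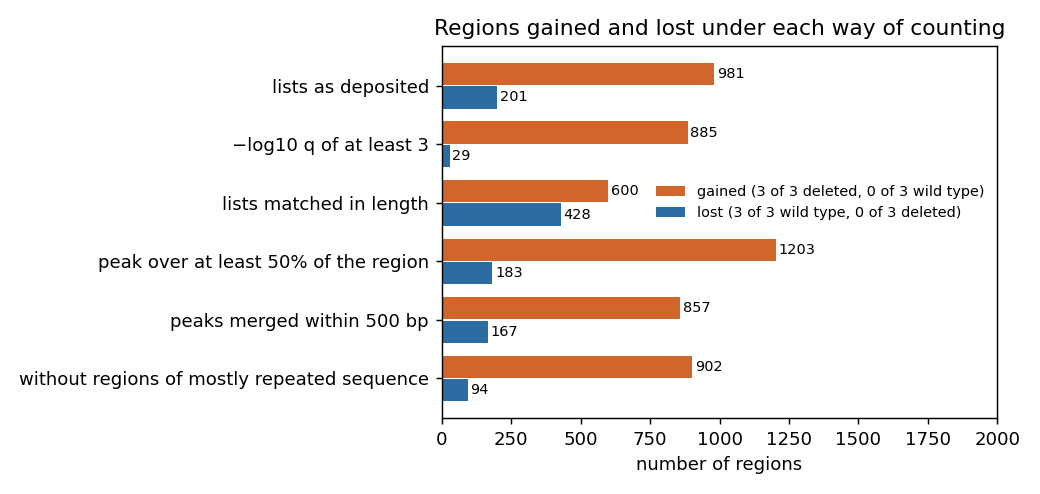
Number of gained and lost regions for the lists as deposited and for 5 other ways of counting, as bars that start at 0. Gained regions number 600 to 1203 and lost regions 29 to 428, and the bars come closest with lists matched in length.

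The strongest gained regions outside Igh did not lie at gene starts. The 15 with the highest value of the lowest −log10 q over the 3 deleted libraries had folds from 4.41 to 11.8. None was within 5 kb of a protein-coding start, 10 were over 50 kb from a start, 5 lay in introns (of Iqcj, Robo2, Cdk15, Samd14 and Cdh6), 5 had a CTCF core, 3 were in no dCas9 RAD21 list and none had NIPBL. The lowest −log10 q ran from 3.21 to 16.5 among the 15, and the next region had 3.18. Because these regions were chosen for their peaks in deleted libraries, their values are a description.

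The top region lay on chromosome 6, past Tcfec, a gene of the MiT family of transcription factors. At chr6:16500110-16500917, 347.5 kb from the Tcfec start, deleted peaks covered 801, 663 and 360 bp with folds of 10.2, 11.4 and 11.8, and no wild type or dCas9 RAD21 list had a peak. Its lowest −log10 q was 16.5, against 7.67 for the region in second place, so it stood apart from all others. The 200 bp at the middle of the stretch covered in all 3 deleted lists, mm9 plus strand, chr6:16500512-16500711, are printed in full capitals because every base was covered in each deleted list, and they hold no CTCF core.
Top gained region: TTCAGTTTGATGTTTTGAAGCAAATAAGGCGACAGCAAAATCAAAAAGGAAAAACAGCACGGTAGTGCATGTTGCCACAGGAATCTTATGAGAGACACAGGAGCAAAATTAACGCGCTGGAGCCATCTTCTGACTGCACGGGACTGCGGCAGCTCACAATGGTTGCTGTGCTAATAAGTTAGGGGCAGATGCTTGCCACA

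Next to it, at chr6:16747690-16748035, the region in second place was covered over 323, 319 and 325 bp with folds of 6.70, 7.03 and 8.73. The whole interval chr6:16465428-16748035 held 7 regions, of which 4 were gained (57.1%, against 0.931% over the genome). RAD21 peaks covered 1770, 1945 and 963 bp of it in deleted libraries and 0, 0 and 59 bp in wild type. The 4 dCas9 RAD21 lists had 90, 0, 76 and 0 bp. The 4 NIPBL lists, all from cells without the Ig2b deletion, had 347 and 626 bp in the control and 384 and 436 bp in the block libraries, though none at the top region. This interval of 283 kb without an annotated protein-coding gene thus had RAD21 in the deleted libraries and almost none in the other 7 RAD21 lists. It runs from the first to the last of its gained regions and was chosen after its values were seen. The contrast with the wild type lists therefore follows from that choice. The dCas9 lists did not enter the rule for gained regions.

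At 4 further places gained regions made up at least 20% of the regions in a span, against 0.931% over the genome. These spans were also chosen after their values were seen. Over Kcnma1, which encodes a calcium-activated potassium channel, 5 of 13 regions in chr14:24220406-24879301 were gained, with 2216, 2458 and 1318 bp covered in deleted and 227, 364 and 223 bp in wild type libraries. The dCas9 RAD21 lists had 658, 639, 942 and 572 bp there. The region at chr14:24827540-24827817, with folds of 7.40, 7.17 and 6.57, was in none of them. Around Cdh6, a cadherin gene, 8 of 29 regions were gained in chr15:12957176-14348685, with 3573, 5103 and 2917 bp in deleted and 685, 920 and 764 bp in wild type libraries. In the dCas9 lists this span had 1871 to 3653 bp, between the Ig2b groups or within the deleted range.

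Around Robo2, a receptor for Slit guidance cues, 4 of 19 regions in chr16:74047032-74684104 were gained, with 2950, 4110 and 1697 bp in deleted and 261, 334 and 163 bp in wild type libraries. On chromosome 12, 6 of 25 regions in chr12:17103400-17357186 were gained, a span with Kcnf1, Pdia6, Nol10 and Atp6v1c2. It had 5911, 7492 and 4050 bp in deleted and 1718, 1870 and 1717 bp in wild type libraries. The 4 dCas9 RAD21 lists split there, with 2025 and 2324 bp in the replicate 1 lists and 10380 and 7276 bp in the replicate 2 lists. Cells with the wild type genotype label therefore reached the deleted range in this span and at Robo2, where control replicate 2 had 3859 bp.

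**Figure D5:**
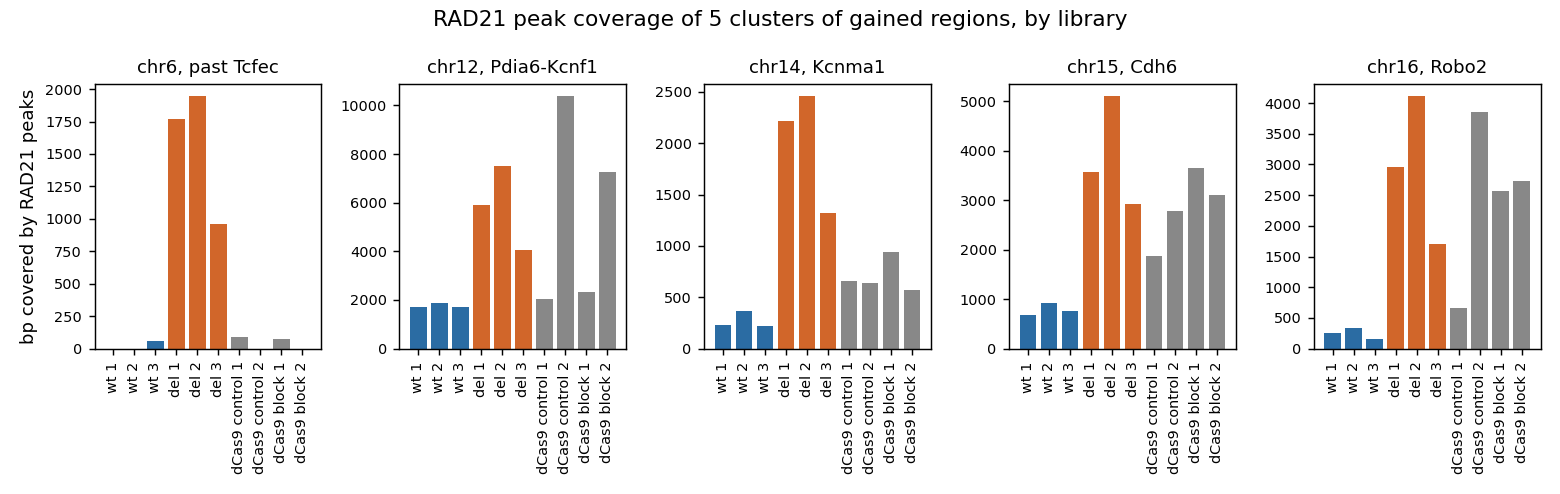
Base pairs covered by RAD21 peaks in 5 spans chosen for their gained regions, 1 bar per library from 0, for the 3 wild type, the 3 deleted and the 4 dCas9 libraries. The chromosome 6 span past Tcfec has 963 to 1945 bp in deleted and at most 90 bp in any other library, whereas in the chromosome 12 span dCas9 control replicate 2 has 10380 bp.

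Single named gained regions lay near genes of varied kinds. In Iqcj, on the side of the Schip1 start, folds were 6.12, 6.12 and 6.11. Near Nav3, a neuron navigator gene, they were 5.24, 6.53 and 6.62, and near Otol1, an inner ear collagen-like gene, 5.88, 4.83 and 6.19. An intron of the kinase gene Cdk15 had 5.37, 5.41 and 4.95. A region near Gm5724 had 5.92, 9.94 and 4.84, and one near Retnlb, which encodes a resistin-like protein, had 5.03, 5.68 and 4.83. All of these were in at least 2 of the 4 dCas9 RAD21 lists, so they were not limited to deleted cells.

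The remaining named gained regions were weaker. One in an intron of Samd14, 5.65 kb from the start of the pyruvate dehydrogenase kinase gene Pdk2, had folds of 5.35, 4.59 and 5.74. Regions near Gsg1 (4.48, 4.54 and 5.05) and Igfbp7, an insulin-like growth factor binding protein gene (4.72, 4.41 and 5.12), were similar, as were the 2 near Cdh6 (4.63, 4.75 and 4.88 at the distant one). The CTCF cores in 3 of the named gained regions are printed as examples of gained sites that carry the motif, with capitals for the core.
Nav3, chr10:108933394-108933433, minus: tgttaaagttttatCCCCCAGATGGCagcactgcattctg
Robo2, chr16:74227721-74227760, plus: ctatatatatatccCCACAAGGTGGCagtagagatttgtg
Gm5724, chr6:141746540-141746579, minus: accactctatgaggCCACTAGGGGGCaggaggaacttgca

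The strongest lost regions outside Igh were less marked. Their lowest −log10 q ran from 1.90 to 3.89, and the next region had 1.90 as well. Near Steap3, a metalloreductase gene of iron uptake, chr1:122186491-122186729 had folds of 5.62, 5.97 and 4.98 in wild type and no peak in deleted libraries. At the start of Acvr1c, a receptor of the TGF-beta family, chr2:58177137-58177346 had 4.69, 4.71 and 4.83. Both regions had a peak in all 4 dCas9 RAD21 lists, so the deleted libraries stood alone among the 10 RAD21 lists in lacking one.

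Of the 15 named lost regions 11 were in all 4 dCas9 lists, 2 were in none, and 3 were mostly repeated (near Hey1, Dars and Mup12). Regions near Lsamp, Mef2c (a transcription factor used in lymphoid cells among others), Gm626, Rnf180, Tctn2, Efemp1, Zfp691 and Sipa1l2 had folds between 3.75 and 4.95 in wild type libraries. Mef2c itself lay 428.2 kb from its region. The CTCF cores of 2 lost regions are printed for comparison with the gained ones, with capitals for the core.
B3gat2, chr1:23769777-23769816, plus: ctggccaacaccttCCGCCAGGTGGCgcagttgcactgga
Tctn2, chr5:125061185-125061224, plus: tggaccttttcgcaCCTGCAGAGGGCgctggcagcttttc

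Genes were then asked for a peak within 5 kb of any annotated start. Of 22831 protein-coding and immunoglobulin genes, 126 had one in all 3 deleted and no wild type list (0.552%), and 4 had the reverse (0.0175%). The 4 were B3gat2, a glucuronosyltransferase gene (folds of 4.25, 6.06 and 4.11 in wild type), Ccdc162 (4.21, 4.02 and 3.67), Nr1i2, which encodes the xenobiotic receptor PXR (3.75, 3.95 and 3.47), and the κ variable gene Igkv1-132 (3.27, 3.63 and 3.41). All 4 had a peak in at least 1 dCas9 control list.

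The 10 gained genes with the highest lowest −log10 q were no more marked. Cd55, which encodes a complement inhibitor of the cell surface, led them with 4.73, 4.42 and 4.41 in deleted libraries. Then came the magnesium transporter gene Cnnm4, the ubiquitin ligase gene Mylip, Lamtor2 and Ubqln4, which share 1 set of peaks between their starts, and Dll4, a Notch ligand gene (4.38, 4.15 and 3.96). Lpar5, Hcrtr1, Slfn8 and Nek4 completed the 10. Among the 126 gained genes, 108 (85.7%) had NIPBL at the start in all 4 NIPBL lists, against 53.8% of all genes, and 125 (99.2%) had RAD21 in a dCas9 control list, against 60.9%. Gained genes have a RAD21 peak by their choice, whereas 9396 of all genes had none in any of the 6 lists. The higher shares are therefore not a trait of gained genes that was tested.

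No member of 7 gene lists was gained or lost by that rule. Of 23 early B lineage genes, 22 had a peak in all 6 lists (95.7%, against 32.2% of all genes), and the last, Irf4, lacked one only in wild type 3. Of 9 T cell genes 2 had a peak in all 6 lists, and of 8 myeloid genes 4. It was 3 of 8 erythroid genes and 7 of 10 housekeeping genes. The lists were chosen with earlier results of these data known, so these counts describe and do not test the lineage label. A RAD21 peak does not show that a gene is transcribed. Of 14 genes for cohesin, its loader and CTCF, 8 had a peak in all 6 lists, and of 17 genes that flank Igh on chromosome 12, 10 had one.

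Where a gene had a peak in all 6 lists, the fold in every deleted library was above every wild type library at 38.6% of all 7350 such genes and below at 0.367%. Among the early B lineage genes this was so at 9 of 22, a share near that of all genes, and below at none. Of the 8 genes for cohesin and its partners with a peak in all 6 lists, 5 had it above. Rag1, which encodes the catalytic subunit of the recombinase, had folds of 11.4, 10.8 and 10.9 in wild type and 12.7, 13.4 and 13.0 in deleted libraries. The transcription factor gene Ebf1 had 4.99, 5.06 and 5.80 against 7.36, 6.67 and 6.64. Dntt, which encodes terminal transferase, had 4.17, 3.91 and 4.57 against 5.70, 5.14 and 5.24, and the surrogate light chain gene Vpreb1 had 4.96, 4.17 and 4.13 against 6.35, 5.24 and 6.02. These 4 genes are examples picked from the 9 after their values were seen. At Pax5 the groups overlapped (6.77, 6.60 and 6.80 against 6.71, 6.49 and 7.07), as they did at Runx1 (9.12, 12.4 and 8.11 against 12.3, 9.78 and 14.4). Among the Igh neighbours Tmem121, at the 3′ end of the locus, had 8.32, 9.24 and 7.03 in wild type and 11.4, 11.6 and 11.7 in deleted libraries, an example picked after its values were seen. Of the 10 neighbours with a peak in all 6 lists, 4 had the fold above in every deleted library, near the share of all genes.

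Covered length was last compared in 10 kb windows across the genome. The test took the 8119 windows in which the 6 libraries averaged 500 bp or more. By limma with Benjamini-Hochberg adjustment, 0 (0%) passed an adjusted p of 0.05. At an unadjusted p under 0.05 there were 897, of which 839 were higher and 58 lower in deleted libraries, beside a median shift of all windows of 0.23 on the log2(bp + 500) scale. Every window named here had an adjusted p of 0.435, and so none passed.

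The window 819 bp upstream of Ebf1, chr11:44420001-44430000, was among the 5 higher windows of smallest p, with 1235, 1279 and 1310 bp covered in wild type and 3200, 3413 and 2433 bp in deleted libraries (log2 difference 0.98, SE 0.16). The other 4 lay at the start of Prkar2b, a protein kinase A subunit gene (0, 77 and 156 bp against 1127, 1379 and 817 bp), at the start of the stress gene Sesn3 (735, 606 and 537 bp against 1755, 2080 and 1455 bp), 60.1 kb from B3gnt2 (102, 182 and 158 bp against 976, 1151 and 632 bp), and 1143 kb from Hace1 (187, 340 and 98 bp against 1266, 1650 and 1350 bp). In each of the 5 windows the groups did not overlap. In dCas9 control replicate 2 the Ebf1 window was covered over 3651 bp, more than in any deleted library. The highest fold in the Ebf1 window was 11.4, 11.8 and 9.60 in wild type and 7.36, 6.67 and 12.3 in deleted libraries. Fold there was thus lower in deleted 1 and 2 than in every wild type library, unlike covered length.

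The lower window of smallest p lay inside Igh. It was chr12:114900001-114910000 in the proximal VH segment, with 1168, 1178 and 1401 bp covered in wild type and 446, 322 and 0 bp in deleted libraries (log2 difference −1.26, SE 0.26). The dCas9 control lists had 820 and 341 bp there and the block lists 187 and 0 bp, so the wild type libraries were above all 4. The other 4 lower windows were near 1700001F09Rik and Gm8138 on chromosome 14, near Zfp600 on chromosome 4 and at Gm2825 on chromosome X. Quantile normalization of the windows, which brings the median shift to −0.02, called 10 windows, and the Igh window was one of 6 lower ones (adjusted p = 0.0403 by limma). Over all its alternatives the adjusted p of this window ran from 0.0403 to 0.893.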

How the data were processed

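RAD21 ChIP-seq was deposited as MACS2 broad peak lists on mm9, 1 per library. Reads were aligned with Bowtie2 2.2.8 and handled with SAMtools 1.8, per the submitters' processing notes; the MACS2 version and settings are not given in the sources used here. Peak names in the deposited Ig2b lists mark removed duplicates and no control library, and those of the dCas9 and NIPBL lists name a control. The deposited lists give, per peak, a score, a fold enrichment (a ratio to the caller's background), and −log10 p and −log10 q, all as computed by the authors. The text uses fold and −log10 q, which are the authors' own values, only to describe, rank or filter peaks. Where a region holds several peaks, the highest fold is given. Read depth is unknown, so no interval or floor is given.

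Peaks of the 6 lists were merged where they shared 1 bp. Covered length per Igh segment, per region and per 10 kb window (log2 of bp + 500, mean of at least 500 bp) was computed with Python 3.11.15. Windows were tested two-sided in R 4.3.3 by limma 3.58.1, with Benjamini-Hochberg adjustment over all windows, and segments by an exact permutation test over libraries. The window script was tested on simulated data. Genes came from GENCODE vM1 on mm9. V gene names were matched through synonyms in RefSeq's GRCm38 gene table, used for names alone. Segments, gene lists and the choice of comparison were made with earlier results of these data known. Named regions are all gained or lost regions of Igh, the 15 gained and 15 lost regions outside it with the highest value of the lowest −log10 q, the 4 lost genes, the 10 gained genes and 5 windows per direction by the same kind of order. Alternatives were a −log10 q of at least 3, lists matched in length, other overlaps, gaps, windows, normalizations and segment ends, a replicate block, and leaving out each library. Counting without mostly repeated regions was chosen after seeing the data. The 4 input samples have no peak list and were not analysed here. One of the 15 named lost regions is not reported here.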

Additional observations from a re-analysis of the deposited data

How the results depend on the processing

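Of the 17 Igh segments, 6 separated the groups in the lists as deposited. With a −log10 q of at least 3 there were 3 (the 3′CBEs, Cγ1 and the middle and distal VH, all higher in deleted libraries), relative to genome coverage 3 (1 higher, 2 lower), and with segment ends moved in by 3 kb 3 (2 higher, 1 lower), where Eμ-JH and IGCR1 were too short and 15 segments remained. With lists of equal length there were 6 (4 higher, and 2 lower, Cγ2b and the proximal VH). Leaving out each library gave 6 to 10, with 10 without deleted replicate 3. Cγ2b stayed lower in all of these but the −log10 q minimum, where the groups overlapped (1.62% against 0), and the segment ends moved out by 3 kb, which gave 6 higher and 0 lower.

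Gained regions numbered 600 with lists of equal length and 1243 to 4183 leaving out each library, with the highest without deleted replicate 3. Lost regions numbered 29 with a −log10 q of at least 3, 428 with lists of equal length, 94 without mostly repeated regions and 245 to 671 leaving out each library, with the highest without wild type replicate 3. Gained genes numbered 236 with the −log10 q minimum, 83 with lists of equal length and 145 to 507 leaving out each library. Lost genes numbered 40 with lists of equal length and 6 to 46 leaving out each library, with the highest without deleted replicate 2. Leaving out a library loosens the rule from 6 lists to 5.

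Windows called by limma numbered 43 with the −log10 q minimum (42 higher, 1 lower), 5 with lists of equal length (0 higher, 5 lower), 10 with quantile normalization (4 higher, 6 lower), and 0 leaving out each library and in the other fits. With the replicate number as a block 0 windows were called, with 1809 at an unadjusted p under 0.05. Same-numbered libraries correlated at 0.0473, 0.145 and 0.215 in their deviations from the group means, each library best with its own number, which is a hint from the data, not from the design. Library numbers in the peak names are adjacent within a replicate number, which the labels do not explain. With 1 correlation under 0.1 no pairing was taken, and shared preparation was not tested. Within each number the deleted library was the higher one at IGCR1 and DH. Depth is unknown, and list length limits what an absent peak shows.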

Other observations

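Windows that passed only under an alternative were looked at after their values were seen. With a −log10 q of at least 3, the 43 windows called by limma included the Ebf1 window (lowest adjusted p over its alternatives 0.018, highest 0.893), the start of Tgfbr2, a TGF-beta receptor gene (1039, 1753 and 464 bp covered in wild type and 1894, 2050 and 1476 bp in deleted libraries, counting all peaks), and the start of Ppp3ca, a calcineurin subunit gene (1410, 2184 and 705 bp against 2842, 3124 and 1982 bp). These lengths are for the 10 kb windows that hold the starts. Among the deposited peaks as a whole both windows had a peak in all 6 libraries.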
